A study of Mus musculus with 51 samples.

Results

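The 10 genes described here encode keratins. Krt13, Krt14, Krt18, Krt19 and Krt23 are type I, and Krt4, Krt5, Krt7, Krt8 and Krt78 are type II. They were taken by symbol from a table of 40077 mouse genes, 54 of which carry a Krt symbol. Krt19 was chosen because its RNA was low in Myc-CaP cells and tumors labelled sgUba1 and high in tumors overexpressing Uba1, and Krt78 because it was high in those overexpressing tumors. Krt19 is therefore given as a description, without a test, in all of these contrasts, and Krt78 in the overexpression contrast only. Krt78 was tested in the sgUba1 contrasts, although the members were picked with earlier results of these data known. The plan had named the sgUba1 Myc-CaP contrasts among those where chosen genes get no test. The tests of Krt78 there are therefore no independent support. The other 8 genes are common keratins of simple, basal and stratified epithelia, and were followed to see which of them moved with Krt19.

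Bulk RNA was sequenced from 35 subcutaneous tumors and 16 cultures. Myc-CaP, a mouse prostate cancer line driven by a Myc transgene, gave 28 tumors in male FVB mice and all 16 cultures, and B16-BL6, a mouse melanoma line, gave 7 tumors in female C57BL/6 mice. The mice were 6 to 8 weeks old at injection, and tumors were placed on both flanks. UBA1 is the enzyme that activates ubiquitin for transfer to proteins, and TAK-243 is a small molecule that inhibits it.

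In the sgRNA experiments, 3 control tumors (sgNC, a non-targeting guide) were set against 7 sgUba1 tumors in Myc-CaP, and 3 against 4 in B16-BL6. These lines were sublines grown from single cells after CRISPR vector transfection and puromycin selection, depletion of Uba1 was partial, and which of 2 guides each sgUba1 tumor carried is not given in the labels. In the overexpression experiment, 4 tumors from cells with a lentiviral Uba1 vector (OE) were set against 3 from cells with the empty vector (EV), both selected with blasticidin. In the drug experiment on unmodified Myc-CaP tumors, 5 tumors from mice given TAK-243 (25 mg/kg intravenously, 2 times a week) were set against 6 from mice given vehicle. The cultures held 2 libraries for each of 8 groups: untreated, 50 nmol/L TAK-243, IFN-γ (1 ng/mL) and both, each for 18 h, and control or sgUba1 cells with and without IFN-γ. The labels do not say whether libraries of a group came from separate mice or cultures, so the p-values measure the spread between these libraries, which may be technical in part.

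Keratins build the intermediate filaments of epithelial cells, and every filament pairs a type I with a type II protein in equal amounts. Krt8 and Krt18 form the pair of simple epithelia, including the luminal cells of the prostate, with Krt7 and Krt19 added in ducts and glands. Krt5 and Krt14 form the pair of basal cells, whereas Krt4 and Krt13 form the pair of the upper layers of internal stratified epithelia such as the esophagus, and Krt78 is a less studied type II keratin of stratified epithelia. Ubiquitination is a route by which keratin proteins are degraded, but RNA levels, as measured here, are a step before that.

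Several of the genes are neighbours in the genome. On GRCm38, with the GENCODE M21 annotation, Krt13, Krt15 and Krt19 are consecutive genes at chr11:100117327-100148665, with 0 other protein-coding genes between them. Krt76, Krt4, Krt79 and Krt78 are likewise consecutive at chr15:101884351-101954287, and Krt8 and Krt18 follow at chr15:101996698-102032027. Krt7 lies apart at chr15:101411043-101430313.

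The RefSeq promoters (GRCm38.p6) are shown for 4 members that are described at length and that differed in their response, Krt78 and Krt13, which were lower in sgUba1 tumors, and Krt7 and Krt8, which did not pass the test there. Each line gives the 100 bases before the annotated start, 5′ to 3′ on the gene's strand, with the A/T-rich TATA-like motif ATAAAA in capitals. Krt78 (chr15:101954288-101954387, minus strand), Krt13 (chr11:100121567-100121666, minus strand), Krt7 (chr15:101412303-101412402, plus strand) and Krt8 (chr15:102004343-102004442, minus strand) read:
Krt78: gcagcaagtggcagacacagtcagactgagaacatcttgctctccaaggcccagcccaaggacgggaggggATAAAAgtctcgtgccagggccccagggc
Krt13: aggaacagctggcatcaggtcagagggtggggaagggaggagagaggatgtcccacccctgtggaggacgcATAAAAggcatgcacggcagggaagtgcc
Krt7: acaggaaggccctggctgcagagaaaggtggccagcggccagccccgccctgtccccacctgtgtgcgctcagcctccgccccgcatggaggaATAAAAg
Krt8: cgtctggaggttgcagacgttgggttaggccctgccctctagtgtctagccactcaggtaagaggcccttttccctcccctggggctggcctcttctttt
In Krt78 and Krt13 the motif began 29 bases before the start, in Krt7 it began 7 bases before it, and Krt8 held none in this window. Krt13 has another RefSeq promoter entry (chr11:100120578-100120677), in which the motif was not found. ATAAAA or TATAAA, which can overlap each other, stood on the gene's strand in 5 of the 8 members with a promoter entry. The same window held one of these motifs on the gene's strand in 6.59% of 32851 mouse promoters, and on either strand in 10.2%. For Krt7 and Krt8 the RefSeq start lies inside the GENCODE gene. A match of letters is a description and not a binding site.

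Levels between genes are compared in TPM, transcript abundances that account for transcript length, and levels between libraries in CPM, counts scaled to library size with TMM factors. Untreated Myc-CaP cells expressed keratins of stratified and of glandular epithelia. By mean TPM the leading keratins there were Krt15 (931), a basal type I keratin that was not among the members, Krt4 (673), Krt19 (133), Krt78 (105) and Krt7 (80.7). The classic luminal partner Krt18 stayed at or below 2.13 TPM in every library. Krt5 reached at most 2 counts and Krt23 at most 3 counts in every library other than 1 TAK-243 tumor described below. In B16-BL6 tumors Krt19 was at or below 0.875 CPM, Krt4 was at 0 and Krt78 had a single count in a single tumor.

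**Figure D1:**
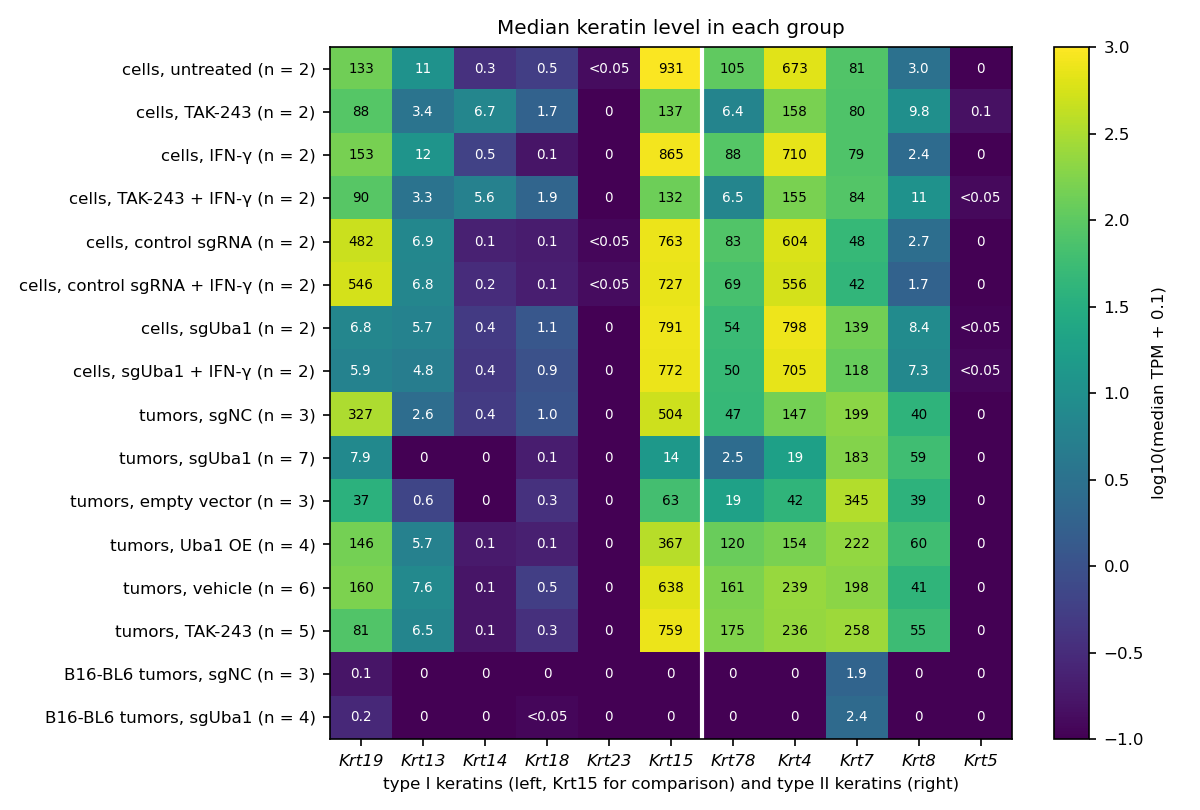
Median TPM of the 10 members and of Krt15 (columns, type I left and type II right) in each of the 16 groups (rows), as the color of log10(TPM + 0.1). Krt19, Krt78, Krt4, Krt15 and Krt7 carry most of the signal in Myc-CaP groups, Krt19 is lowest among Myc-CaP groups in the 3 groups labelled sgUba1, and the B16-BL6 groups are near the bottom of the scale.

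Total counts lay between 8651963 and 38032284 per library. The prostate marker Hoxb13 stood at 9.02 to 31.5 TPM in Myc-CaP tumors, but the epithelial markers Epcam (at most 0.531 TPM) and Cdh1 (at most 1.06 TPM) were close to absent. B16-BL6 tumors expressed the melanocyte gene Dct at 3623 to 4309 TPM. Uba1 RNA was lower in sgUba1 cells (log2 fold change −0.87, adjusted p = 3.71e-07) and B16-BL6 sgUba1 tumors (−0.92, adjusted p = 2.94e-04), and higher in OE tumors (1.27, adjusted p = 0.00503). In Myc-CaP tumors it was 197 to 383 CPM in those labelled sgUba1 and 320 to 337 CPM in controls (log2 fold change −0.13 ± 0.24 SE, adjusted p = 0.787), so the RNA does not separate these groups and they are named by their labels. Tumors 1 to 3 labelled sgUba1 stood at 197 to 211 CPM, below every control, and tumors 4 to 7 at 361 to 383 CPM, above every control.

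Krt19, a type I keratin of ducts and glands, followed the labels of the sgRNA and overexpression experiments, on which it was chosen. In control sgRNA cells it stood at 416 and 482 CPM, and in sgUba1 cells at 5.78 and 6.68 CPM. In Myc-CaP tumors it stood at 234, 1047 and 300.3 CPM in the 3 controls, against a lowest of 2.87, a median of 7.80 and a highest of 55.5 CPM in the 7 tumors labelled sgUba1. The groups did not overlap in either setting, with fitted log2 differences of −6.17 in cells and −5.22 in tumors that are a description, since they chose the gene. In the other direction, EV tumors stood at 20.99, 33.8 and 35.3 CPM and OE tumors at 138, 138, 158 and 103 CPM, a 4.47-fold fitted difference. In bulk tumors, fewer cells of a type and less RNA per cell cannot be told apart.

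The order of Krt19 levels over all groups had gaps and long ties. By median TPM it ran from control cells with IFN-γ (546) and without it (482), through sgNC tumors (327), vehicle tumors (160), IFN-γ-treated cells (153), OE tumors (146) and untreated cells (133). Lower down came cells with TAK-243 and IFN-γ (89.9), TAK-243 cells (88.0), TAK-243 tumors (81.2), EV tumors (37.3), sgUba1 tumors (7.92), sgUba1 cells (6.83), sgUba1 cells with IFN-γ (5.85) and the B16-BL6 groups (0.185 and 0.0678). Of the 15 neighbouring pairs in this order, 5 did not overlap between libraries, and the other 10 pairs did. The control groups of different experiments were themselves far apart, since EV tumors lay below every sgNC tumor. Levels across experiments were not tested.

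Krt78 had another order. Its median TPM was highest in TAK-243 tumors (175) and vehicle tumors (161), followed by OE tumors (120), untreated cells (105), IFN-γ-treated cells (88.4) and control sgRNA cells (83.3). The low end held sgNC tumors (46.9), EV tumors (19.5), cells with TAK-243 and IFN-γ (6.47), TAK-243 cells (6.37) and sgUba1 tumors (2.48). Here 8 of 15 neighbouring pairs did not overlap. Krt78 was thus lowest among Myc-CaP groups in tumors labelled sgUba1 and in cultured cells given the UBA1 inhibitor, whereas Krt19 in the latter stayed within the middle of its own order.

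In the Myc-CaP tumors labelled sgUba1, Krt78, Krt4 and Krt13 fell, beside the low Krt19. Krt78 stood at 76.3, 471 and 102 CPM in the controls and between 2.59 and 12.2 CPM, with a median of 5.46, in the tumors labelled sgUba1. Its log2 fold change was −5.14 (SE 0.56, 95% interval −6.36 to −3.91, adjusted p = 0.0102), a 35.2-fold lower level. All 7 tumors labelled sgUba1 lay below all 3 controls. Krt78 was picked with earlier results of these data known, so its test here is read with that limit.

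Krt4, the type II keratin of internal stratified epithelia, stood at 114, 819 and 189.9 CPM in the controls and at a lowest of 5.67, a median of 25.3 and a highest of 43.9 CPM in the tumors labelled sgUba1 (log2 fold change −3.89 ± 0.61 SE, adjusted p = 0.0193). Its type I partner Krt13 had 11, 116 and 31 counts in the controls. In the tumors labelled sgUba1 it had 0 counts in 5, 8 counts in 1 and 1 count in 1, with a fitted log2 fold change of −5.45 ± 1.005 SE (adjusted p = 0.0273) that depends on how counts near 0 are modelled. Krt13 passed the filter only through the controls. The groups overlapped for none of Krt78, Krt4 and Krt13, with control tumor 2 the highest for all of them. Without control tumor 2 the log2 fold change and adjusted p were −3.87 and 0.00786 for Krt78, −2.59 and 0.0813 for Krt4, and −3.93 and 0.153 for Krt13. Krt4 also lost its call without either of 2 tumors labelled sgUba1, and Krt13 without control tumor 3 or any of 4 tumors labelled sgUba1 (adjusted p of at most 0.0641 in these fits).

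Krt7 and Krt8 did not follow. Krt7, a simple epithelial type II keratin, was 348, 265 and 301 CPM in the controls and 217 to 452 CPM (median 339) in the tumors labelled sgUba1, with a log2 fold change of 0.10 whose 95% interval was −0.38 to 0.57. Krt8 was 41.4, 328 and 46.8 CPM in the controls and 36.9 to 146 CPM (median 62.4) in the tumors labelled sgUba1 (log2 fold change −0.76 ± 0.63 SE, adjusted p = 0.50). Its sign rested on control tumor 2, without which it was 0.88. Of the 10 members 6 passed the filter on low counts, and the 4 that did not were Krt5, Krt14, Krt18 and Krt23. Among all 16202 genes tested, 3.04% passed an adjusted p of 0.05, 1.89% as lower, and in 5.38% all tumors labelled sgUba1 lay below all controls.

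Krt18 was among the members too low to test in these tumors alone. It had 8, 15 and 10 counts in the controls, against 2, 3, 1, 1, 0, 3 and 1 in the tumors labelled sgUba1, so the groups did not overlap. Krt14 had 0, 6 and 5 counts in the controls, and in the tumors labelled sgUba1 3 counts in 1 tumor and 0 in the other 6. Krt5 and Krt23 had 0 counts in all 10 tumors.

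**Figure D2:**
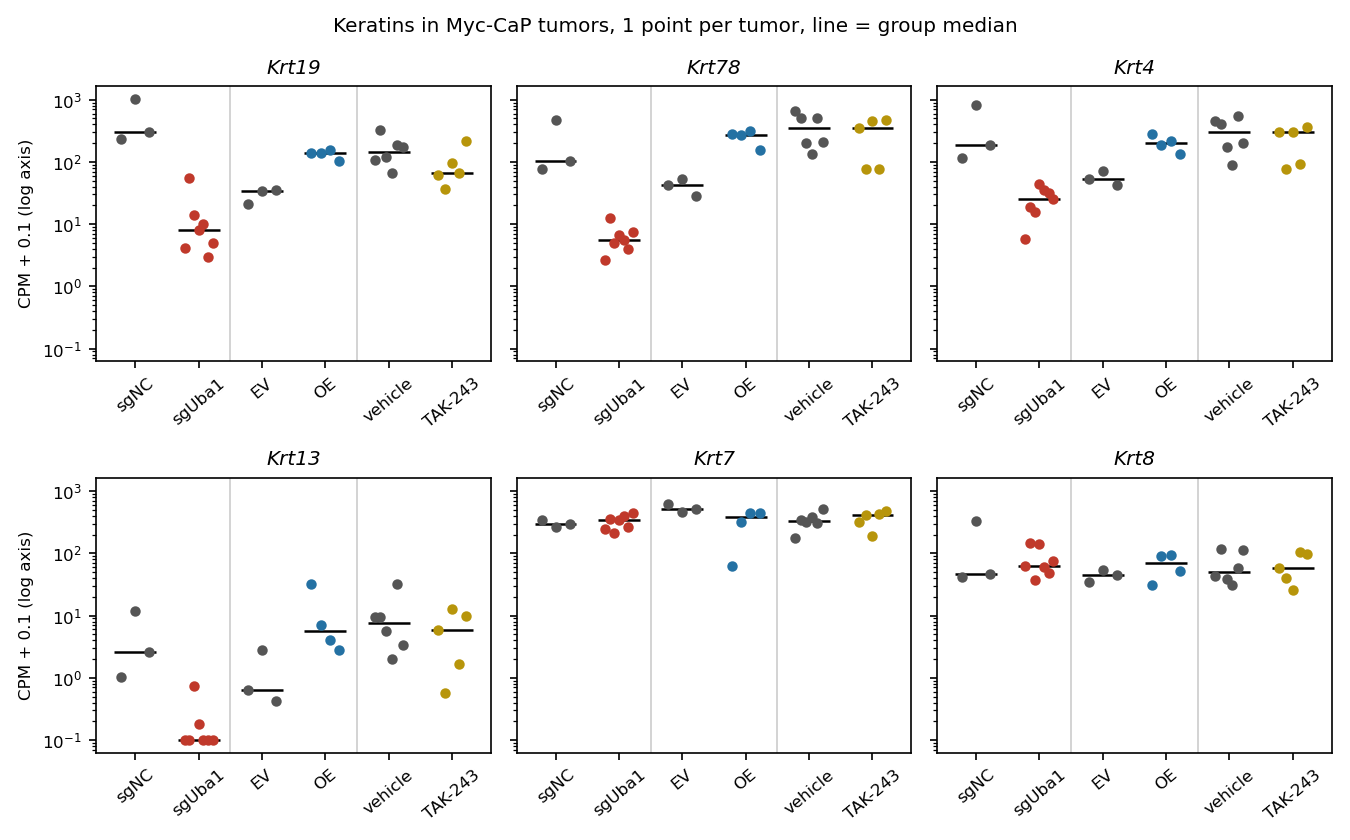
CPM + 0.1 (log axis) of Krt19, Krt78, Krt4, Krt13, Krt7 and Krt8 in each Myc-CaP tumor, by group, with a line at the group median. Krt19, Krt78, Krt4 and Krt13 are lower in every sgUba1 tumor than in every sgNC tumor, Krt19, Krt78 and Krt4 are higher in every OE than in every EV tumor, and the vehicle and TAK-243 groups overlap in every panel.

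Other keratins were lower in the same tumors. Of the 44 other Krt genes 9 could be tested, and 4 were lower and 0 higher, with a median log2 fold change over the 9 of −2.35 beside 0.00 over all genes. Krt15 fell by 4.80 on the log2 scale (SE 0.92, adjusted p = 0.0297), from 188, 1299 and 505 CPM to between 1.502 and 78.1 CPM. Krt79 (−3.87 ± 0.85 SE, adjusted p = 0.0417) and Krt36, a hair keratin (−2.91 ± 0.62 SE, adjusted p = 0.038), fell as well. Krt76, a stratified epithelial keratin next to Krt4, had 16 to 20 counts in each control and 0 in all 7 tumors labelled sgUba1 (adjusted p = 0.0193), at least 6.39-fold lower with a floor of 3 counts in each library. It passed the filter only through the controls and is named after its values were seen. Krt13, Krt15 and Krt19 on chromosome 11 were all lower in every tumor labelled sgUba1 than in every control. So were Krt76, Krt4, Krt79 and Krt78 on chromosome 15, and 5.38% of all genes tested. The 2 runs of neighbours given above were drawn to hold these genes, so their match is no support. Krt36, next to Krt13, and Krt8, next to Krt78, overlapped between the groups. Krt19 was chosen on this contrast, and Krt13 and Krt76 passed the filter only through the controls. A part of the genome position in this was not tested.

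Few partners of keratin filaments passed the test in these tumors, where 3.04% of all genes did. Of the desmosome and plakin genes, which anchor keratins at cell contacts, 0 of 12 tested changed, and of the other intermediate filament genes 0 of 8. Of the cornified envelope and skin genes 1 of 4 was lower, the corneodesmosome gene Cdsn (−6.01 ± 0.91 SE, adjusted p = 0.0193). Of 25 genes of epithelial adhesion and identity 3 were lower, among them Sox9, a transcription factor of epithelial progenitors (−1.34 ± 0.25 SE), and the tight junction gene Tjp1 (−0.63 ± 0.12 SE).

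Markers of other cells moved in these tumors too. Of 12 myeloid markers 3 were higher (Adgre1 1.15 ± 0.21 SE, Cd68 0.83 ± 0.16 SE and C1qa 0.82 ± 0.16 SE), and the list summed to 335 to 625 TPM in the controls and 569 to 1005 TPM in the tumors labelled sgUba1. Among the T and NK cell markers 1 of 6 was higher, the pan-leukocyte gene Ptprc (1.06 ± 0.24 SE). Fibroblast, endothelial, muscle, hair shaft, melanocyte and prostate markers gave 0 calls. Of skin keratinocyte markers 3 could be tested and 1, Krt15, was lower, and the 8 keratin-free skin markers summed to 15.4, 47.7 and 10.2 TPM in the controls, with control tumor 2 the highest, and to 9.15 to 20.3 TPM in the tumors labelled sgUba1. The part of these cells in the keratin differences was not tested.

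Cultured sgUba1 cells had another keratin pattern. Krt78 fell, from 168 and 203 CPM in controls to 116 and 118 CPM (log2 fold change −0.67 ± 0.07 SE, adjusted p = 7.27e-05). Krt4 rose, from 771 and 823 CPM to 1030.5 and 1034 CPM (0.37 ± 0.05 SE, adjusted p = 1.56e-04). Both differences were small beside those in tumors, and Krt4 had the opposite sign.

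Krt7 and Krt8, keratins of simple epithelia, rose in these cells. Krt7 was 87.7 and 86.2 CPM in controls and 238 and 232 CPM in sgUba1 cells (1.43 ± 0.05 SE, adjusted p = 1.88e-08), and Krt8 was 3.47 and 3.04 against 10.7 and 9.05 CPM (1.61 ± 0.13 SE, adjusted p = 1.08e-05). Krt18, the partner of Krt8, went from 2 and 3 counts to 38 and 26 counts (adjusted p = 4.65e-04). That remains a low level, and Krt18 passed the filter only through the groups where it was high, so its call is no support. Krt13 was 6.23 and 7.35 against 5.81 and 5.27 CPM and Krt14 3 and 5 against 18 and 9 counts, and neither passed the test (adjusted p = 0.098 and 0.116). Of the other 6 members tested 3 were thus higher and 1 lower, where 16.2% and 13.6% of the 15530 genes were higher and lower and 29.7% were called in all. Krt5 and Krt23 did not pass the filter.

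Of 8 other keratins tested in sgUba1 cells 1 was higher and 1 lower. The counts in this paragraph are to be read beside 16.2% higher and 13.6% lower over all genes. Krt6a, a keratin of activated and regenerating epithelium whose near-identical copy Krt6b makes its counts uncertain, rose by 2.96 (SE 0.06, adjusted p = 1.41e-10) from 29.2 and 26.3 to 219 and 212 CPM, and Krt76 fell by 1.96 (SE 0.11, adjusted p = 4.48e-07). Krt15, which was low in the tumors labelled sgUba1, was 764 and 789.7 CPM in controls and 796 and 784 CPM in sgUba1 cells. Desmosome and plakin genes went both ways, 4 of 13 higher and 4 lower, among them the plakophilin gene Pkp3 (0.92 ± 0.10 SE) and the plectin gene Plec (−0.76 ± 0.06 SE). Of 24 epithelial adhesion and identity genes 6 were higher, led by Crb3 (4.48 ± 0.50 SE), Cldn4 (2.79 ± 0.26 SE) and Lamb3 (2.74 ± 0.21 SE), and 6 were lower, led by the transcription factor gene Ehf (−1.35 ± 0.06 SE). Crb3 had a mean of 0.088 CPM in control cells and 2.02 CPM in sgUba1 cells, so its size depends on how counts near 0 are modelled. Cornified envelope genes gave 1 higher (Sbsn 0.77) and 1 lower (Cdsn −0.64) of 3, and other intermediate filament genes 3 lower of 5, by at most 0.47.

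With IFN-γ present the members gave the same directions against stimulated controls. Krt19 was 536 and 541 CPM in controls and 5.73 and 5.80 CPM in sgUba1 cells. Krt7 (1.41), Krt8 (2.10), Krt18 (2.84) and Krt4 (0.35) were higher, Krt78 (−0.47, adjusted p = 4.33e-04) and Krt13 (−0.50, adjusted p = 0.00735) were lower, and 39.4% of all genes were called. Krt18 passed the filter only through the sgUba1 groups, so its call is again no support. The test of whether IFN-γ altered the sgUba1 difference called 0 of the 7 members tested and 4.64% of all genes by edgeR. DESeq2 also called 0 members, and 1 member, Krt8, had an unadjusted p under 0.05 (0.49, 95% interval 0.05 to 0.94).

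The sgUba1 differences in tumors and in culture were compared in a single fit over the 4 groups, an alternative chosen after seeing the data. Only 5 of 16844 genes (0.0297%) passed in this comparison, and Krt18 was one of them, with a fitted log2 change in tumors minus that in culture of −6.15 (SE 0.84, adjusted p = 0.0259). Its counts were at most 3 in the tumors labelled sgUba1 and in control cells, so the size depends on how counts near 0 are modelled, and it entered the fit through the groups where it was high. Krt76, with 0 counts in all 7 tumors labelled sgUba1, also passed (adjusted p = 0.0259), and no size is given for it. For Krt78 (−4.42 ± 0.92 SE, adjusted p = 0.11), Krt4 (−4.21 ± 1.04 SE, adjusted p = 0.198) and Krt13 (−5.13 ± 1.39 SE, adjusted p = 0.224) the tumor difference was the larger, but the test of the difference did not pass.

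**Figure D3:**
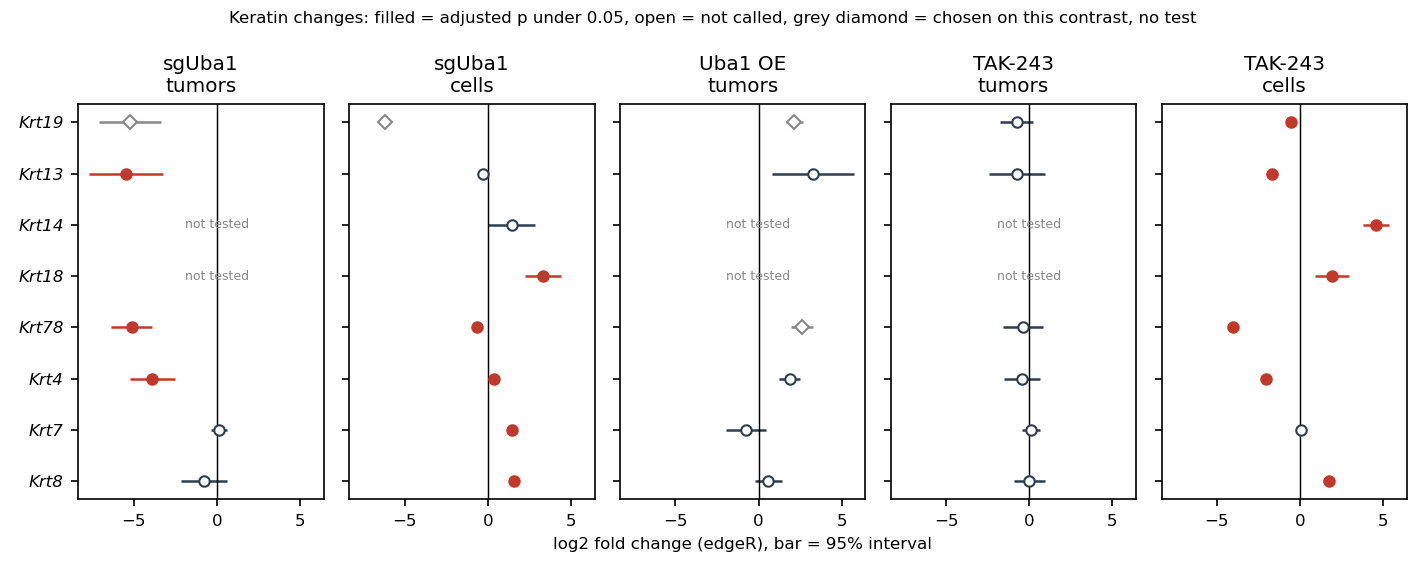
Log2 fold changes with 95% intervals of the members that could be fitted, in 5 comparisons. Filled points passed an adjusted p of 0.05, open points did not, and grey diamonds mark genes chosen on that contrast. Krt78 and Krt4 lie far below 0 in sgUba1 tumors and TAK-243 cells, Krt8 lies above 0 in both cell comparisons, and all intervals in TAK-243 tumors include 0.

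In the overexpression experiment Krt19 and Krt78, both chosen on this contrast, were higher. Krt78 stood at 41.9, 52.6 and 28.6 CPM in EV tumors and at 277, 268, 311 and 156 CPM in OE tumors, a fitted log2 difference of 2.63. Krt4 followed in direction, with 53.0, 71.8 and 42.8 CPM in EV tumors and 286, 188, 213 and 135 CPM in OE tumors. All 4 OE tumors lay above all 3 EV tumors. The log2 fold change of Krt4 was 1.88 (SE 0.27, 95% interval 1.26 to 2.50), but its adjusted p was 0.116 in a fit where 4 of 14853 genes (0.0269%) passed and 2698 (18.2%) had an unadjusted p under 0.05. Of 9 settings run besides leaving out a library it passed in 2, with adjusted p-values of up to 0.257. These were DESeq2 (adjusted p = 9.15e-09), which called 723 genes here, and no filter on low counts (0.0314). With a tumor left out it passed in 2 of 7 fits, without OE tumor 1 (0.0154) and without OE tumor 4 (0.0293). The highest adjusted p among those 7 was 0.427.

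Krt13 stood at 0.547, 2.72 and 0.317 CPM in EV tumors and at 32.3, 7.02, 3.99 and 2.68 CPM in OE tumors. The lowest OE tumor was just below the highest EV tumor, and the log2 fold change of 3.27 ± 1.09 SE did not pass (adjusted p = 0.188). Krt8 was 34.8, 54.4 and 44.1 against 30.8, 89.7, 95.2 and 52.9 CPM (0.60 ± 0.36 SE, adjusted p = 0.41). Krt7 went the other way, with 624, 467 and 521 CPM in EV tumors and 63.6, 325, 444 and 439 CPM in OE tumors, OE tumor 1 being the lowest (−0.76 ± 0.52 SE, adjusted p = 0.4655). Every OE tumor was below every EV tumor for Krt7, as for 10.1% of all genes, and 10.7% of genes had every OE tumor above. Krt5, Krt14, Krt18 and Krt23 did not pass the filter, with at most 12 counts in any of the 7 tumors.

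Among the other keratins 0 of 6 tested passed in OE tumors. Krt15 was 41.0, 149 and 60.5 CPM in EV tumors and 1146, 381, 356 and 240.0 CPM in OE tumors (2.67 ± 0.65 SE, adjusted p = 0.134), and Krt79 0.984, 1.36 and 1.27 against 5.65, 7.70, 6.68 and 4.39 CPM (2.33 ± 0.27 SE, adjusted p = 0.0599). The groups did not overlap for either gene. Krt76 had 0 counts in all EV tumors and 15, 16, 13 and 1 counts in OE tumors. Krt15, Krt79 and Krt76 are named here after their values were seen. Every list of partner genes and of cell markers gave 0 calls in this comparison.

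In tumors treated with TAK-243, no difference in the 6 members tested was detectable. Krt19 ran from 66.5 to 321 CPM (median 145) in vehicle tumors and stood at 61.0, 37.1, 95.02, 65.4 and 214 CPM in TAK-243 tumors (log2 fold change −0.77, 95% interval −1.76 to 0.22, adjusted p = 0.446). Krt78 ran from 137 to 669 CPM (median 355) in vehicle tumors and stood at 353, 78.2, 457, 76.2 and 474 CPM in TAK-243 tumors (−0.37, 95% interval −1.57 to 0.82, adjusted p = 0.778). The groups overlapped, with TAK-243 tumors 2 and 4 low and the other three within the vehicle range for Krt78.

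Krt4 ran from 89.8 to 539 CPM (median 302) in vehicle tumors and stood at 306, 78.1, 302, 91.1 and 366 CPM in TAK-243 tumors, again with tumors 2 and 4 the lowest (−0.45 ± 0.50 SE, adjusted p = 0.702). Krt13 (−0.75 ± 0.78 SE), Krt7 (0.10 ± 0.26 SE) and Krt8 (−0.01 ± 0.43 SE) had adjusted p-values of 0.678, 0.882 and 0.993. Of the 17299 genes 25 (0.145%) passed with edgeR and 2587 (15.0%) had an unadjusted p under 0.05, among which were 0 of the 6 members. Of 10 other keratins 0 passed, as in the lists of partner genes, and of 12 myeloid markers 1 was higher (Itgam 0.82 ± 0.14 SE).

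TAK-243 tumor 1 stood apart in skin keratins. It had 588 counts of Krt5 (13.6 TPM), 1164 of Krt14 (36.0 TPM) and 17 of Krt23, against at most 0, 4 and 1 counts in the other 4 TAK-243 tumors. It also had 568 counts of Krt1 and 411 of Krt10, the pair of upper epidermis. All 13 skin keratinocyte markers reached 10 counts in this tumor and 3 did in each of the other 4 TAK-243 tumors, and the 8 keratin-free markers summed to 109 TPM beside 12.5 to 18.04 TPM. Without this tumor the log2 fold changes of TAK-243 against vehicle were −0.46 for Krt78, −0.57 for Krt4, −0.73 for Krt13 and 0.03 for Krt8.

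In cultured cells most members differed with TAK-243, in both directions, where 66.3% of all genes were called. Krt78 fell 16.3-fold, from 235 and 235 CPM to 13.8 and 15.2 CPM (log2 fold change −4.03 ± 0.06 SE, adjusted p = 1.85e-30). Krt4 fell from 906 and 877 to 222 and 203 CPM (−2.07 ± 0.04 SE, adjusted p = 2.99e-28), and Krt13 from 11.7 and 10.1 to 3.44 and 3.37 CPM (−1.67 ± 0.18 SE, adjusted p = 1.08e-09). Krt78, Krt4 and Krt13 were thus lower, as they were in the tumors labelled sgUba1, where here 34.0% of all genes were lower. In sgUba1 cells, however, Krt4 was higher and Krt13 did not pass, and in TAK-243 tumors none of these genes passed.

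Krt19 fell by less, from 128 and 122 CPM to 85.4 and 82.2 CPM (−0.57 ± 0.04 SE, 95% interval −0.67 to −0.48, adjusted p = 1.51e-12). Krt8 rose from 4.09 and 3.25 to 12.8 and 11.2 CPM (1.71 ± 0.17 SE, adjusted p = 4.35e-10) and Krt18 from 6 and 6 to 26 and 16 counts (1.92 ± 0.50 SE, adjusted p = 0.0013). The basal keratin Krt14 rose from 1 and 8 to 106 and 92 counts (4.57 ± 0.37 SE, adjusted p = 5.23e-12). Krt18 and Krt14 passed the filter only through groups given the drug, so their calls are no support. Krt7 was 139 and 145 against 147 and 143 CPM, with an interval of −0.05 to 0.11 around a log2 fold change of 0.03. Of 14551 genes 66.3% were called, 32.3% as higher and 34.0% as lower, beside which the 7 of 8 members called, Krt18 and Krt14 included, are to be read.

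Of the 11 other Krt genes tested, hair keratins included, 5 were higher and 2 lower with TAK-243 in cells, to be read beside the 66.3% of all genes called. Krt15 fell by 2.74 (SE 0.03, adjusted p = 3.60e-32), from 959 and 947 to 142 and 143 CPM, and Krt76 by 1.40 (SE 0.14). Krt16, a keratin of wounded and activated epidermis, had 0 counts in both untreated libraries and 188 and 141 counts with TAK-243, at least 60.3-fold higher, and Krt17 had 1 and 0 against 49 and 22 counts, both passing the filter only through groups given the drug. Krt6a (1.32 ± 0.07 SE), Krt79 (0.40 ± 0.14 SE) and Krt80 (0.25 ± 0.06 SE) were also higher. Krt14, Krt16 and Krt17 are close paralogs, so a part of their counts may be shared. By mean TPM the leading keratins after TAK-243 were Krt4 (158), Krt15 (137), Krt19 (88.0), Krt7 (80.1) and Krt6a (43.5).

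More partners of the filaments were called higher than lower with the drug. Over all genes 66.3% were called, 32.3% as higher and 34.0% as lower, and the counts here are to be read beside these shares. Of 12 desmosome and plakin genes 8 were higher and 0 lower (median log2 fold change 0.29 beside 0.03 over all genes), among them the plakophilin genes Pkp2 (1.83 ± 0.07 SE) and Pkp3 (1.60 ± 0.13 SE) and the envoplakin gene Evpl (1.29 ± 0.11 SE). Of 24 adhesion and identity genes 14 were higher and 5 lower, with Lamb3 (2.92 ± 0.17 SE) and the epithelial transcription factor gene Elf3 (2.42 ± 0.11 SE) among the higher. Of 4 cornified envelope genes 2 were higher (the transglutaminase gene Tgm1 5.25 ± 0.53 SE, and Sbsn 2.49 ± 0.10 SE) and 1 lower (Cdsn −1.72 ± 0.09 SE). Of 8 other intermediate filament genes 5 were higher, led by Prph (6.54 ± 0.61 SE) and with Vim at 1.18 ± 0.04 SE, and 2 lower, Synm (−1.62 ± 0.09 SE) and Lmnb2 (−1.31 ± 0.10 SE).

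The drug's effect on Krt78 differed between culture and tumors. In a single fit over the 4 groups, again chosen after seeing the data, the change in tumors was higher than that in culture by 3.65 on the log2 scale (SE 1.04, adjusted p = 0.0147), and for Krt15 by 2.67 (SE 0.87, adjusted p = 0.0308). Of all genes 29.1% passed this test by edgeR, and 0 of the members did by limma-voom. Krt4 (1.63 ± 0.87 SE, adjusted p = 0.189) and Krt19 (−0.19 ± 0.79 SE, adjusted p = 0.925) did not pass. Dose, route and time differed between the settings.

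With IFN-γ alone, 3 of 8 members passed in untreated cells and 0 of 8 in control sgRNA cells. In untreated cells Krt19 rose from 128 and 122 to 171 and 164 CPM (0.42 ± 0.04 SE, adjusted p = 2.58e-09), Krt4 from 906 and 877 to 1089 and 1118 CPM (0.31 ± 0.03 SE, adjusted p = 1.26e-08) and Krt7 from 139 and 145 to 174 and 179.9 CPM (0.31 ± 0.04 SE, adjusted p = 1.42e-07), with 29.0% of all genes called. The median log2 ratio over all genes was −0.19 in TPM and 0.04 in CPM, and on the TPM scale Krt7 was at −0.03 and Krt4 did not pass. Krt19 passed in all 9 settings run besides leaving out a library (0.19 to 0.43, adjusted p of at most 0.0283). In control sgRNA cells 0 of 8 members passed by edgeR, where 3.88% of genes did. DESeq2 called 1 member, and 3 members and 23.0% of all genes had an unadjusted p under 0.05, among them Krt19, which was at 0.26 (adjusted p = 0.0589).

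With IFN-γ present, TAK-243 gave the same directions for the 7 members that had passed without it. Krt78 (−3.93), Krt4 (−2.35), Krt13 (−2.01) and Krt19 (−0.92) were lower and Krt8 (2.02), Krt18 (4.49) and Krt14 (3.29) higher, with 68.2% of all genes called. Krt18 and Krt14 passed the filter only through groups given the drug, so their calls are again no support. Krt18 had 1 count in each library given IFN-γ alone, so its size depends on how counts near 0 are modelled. Krt7 was lower by 0.14 (adjusted p = 0.00118) in CPM and higher by 0.09 on the TPM scale. In the test of whether the drug's effect differed with IFN-γ, which called 2.38% of genes, Krt19 (−0.34 ± 0.06 SE, adjusted p = 0.0014) and Krt4 (−0.28 ± 0.05 SE, adjusted p = 8.70e-04) fell further with IFN-γ present. Both calls were lost on the TPM scale.

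In B16-BL6 tumors Krt7 was the single member that passed the filter. It stood at 4.93, 5.87 and 5.04 CPM in the controls and at 6.75, 6.18, 6.92 and 5.77 CPM in sgUba1 tumors, with overlap between the groups (log2 fold change 0.28 ± 0.12 SE, 95% interval −0.00 to 0.55, adjusted p = 0.308). Of 17539 genes 0.724% passed by edgeR and 16.3% had an unadjusted p under 0.05. Of the other keratins 0 of 3 tested passed.

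In Myc-CaP, the median share of type I keratins was lower in the sgUba1 tumors and cells, where Krt19 was low, than in their controls. Summed over all keratins, type I made up 51.1 to 64.8% of keratin TPM in sgNC tumors (median 63.6%) and 2.12 to 29.2% in tumors labelled sgUba1 (median 7.56%), as type I sums went from 445–2595 TPM to 9.82–108 TPM and type II sums from 425–1410 to 261–493 TPM. In EV tumors the share was 11.1 to 28.3% and in OE tumors 37.98 to 74.3%, and the groups did not overlap in either experiment. Among single genes, 5.38% were lower in every tumor labelled sgUba1 than in every control. In the overexpression experiment 10.7% were higher in every OE tumor than in every EV tumor. Vehicle tumors (36.7 to 55.7%) and TAK-243 tumors (32.3 to 58.8%) overlapped. In cells the median share was 60.6% in controls and 40.3% in sgUba1 cells, and 53.7% in untreated and 42.4% in TAK-243 cells. Krt19 and Krt15 together made up 98.0 to 98.4% of the type I sum in sgNC tumors, 60.4 to 94.4% in tumors labelled sgUba1 and 86.2 to 99.0% in cells. In sgUba1 cells the median type I sum was 811 TPM beside 1258 TPM in controls, and Krt19 alone went from 482 to 6.83 TPM. In sgUba1 cells the share thus restates in large part the values that chose Krt19. In the sgRNA and overexpression tumors the share likewise includes the Krt19 values on which Krt19 was chosen. Krt15 moved there as well. Its mean was 682 TPM in sgNC and 24.8 TPM in sgUba1 tumors, beside 591 and 16.1 TPM for Krt19. In EV and OE tumors it was 85.0 and 511 TPM, beside 33.5 and 144 TPM for Krt19. No test of the share is given.

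**Figure D4:**
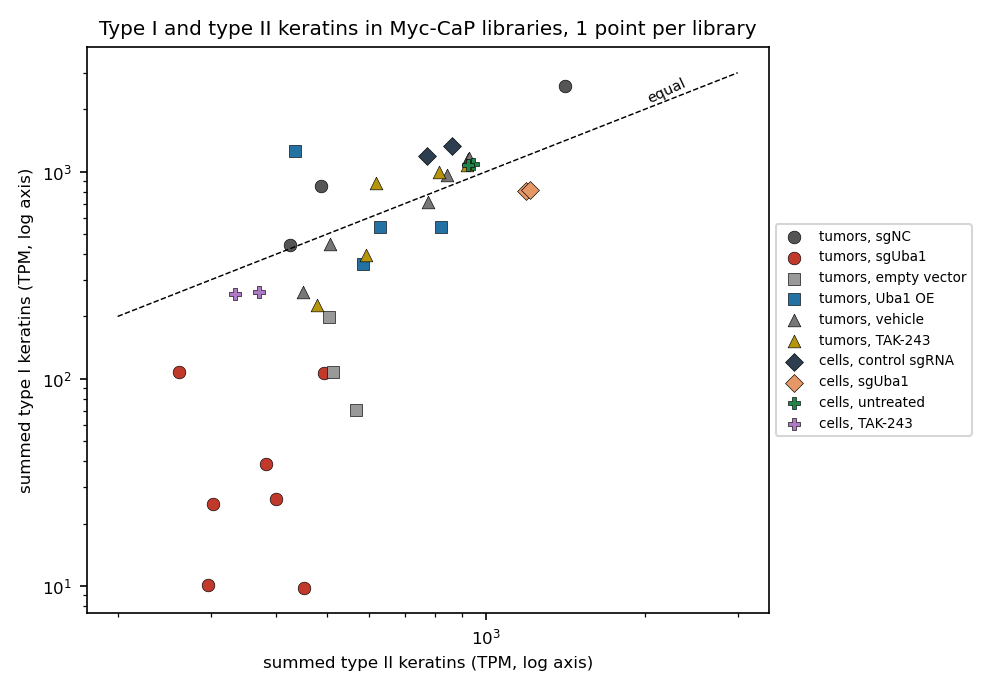
Summed type I against summed type II keratin TPM (log axes) in each Myc-CaP library, without the IFN-γ groups, with a dashed line at equal sums. The tumors labelled sgUba1 lie far below the line with type I sums of 9.82 to 108 TPM, and control cells lie above it.

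Across the 28 Myc-CaP tumors, with the mean of each experiment removed from log2 CPM, Krt19 ran with Krt78 (Pearson r = 0.914), Krt15 (0.890), Krt4 (0.820) and Krt13 (0.783), less with Krt8 (0.384) and not with Krt7 (−0.145). Krt78 ran with Krt4 (0.944), Krt13 (0.874) and Krt79 (0.870) and not with Krt7 (−0.289). These points share groups and libraries, and the values are carried in part by the sgUba1 and OE contrasts on which Krt19 and Krt78 were chosen. With the group means removed instead, Krt19 had values of 0.687 with Krt15, 0.658 with Krt78, 0.570 with Krt8, 0.460 with Krt13, 0.438 with Krt4 and 0.00243 with Krt7, so that Krt8 came before Krt13 and Krt4. Krt78 had 0.850 with Krt4, 0.728 with Krt79 and 0.709 with Krt13. Among 13318 genes the 5 most like Krt19 with experiment means removed, and so with the same limit, were Anxa3 (0.929), Krt78 (0.914), Gprc5a (0.892), Krt15 (0.890) and Itga3 (0.888), and the 5 most like Krt78 were Capg (0.954), Krt4 (0.944), Itga3 (0.941), Far1 (0.927) and Styk1 (0.926). Itga3, an integrin subunit gene of epithelial cells, stood in both lists.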

How the data were processed

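RNA-seq of 51 libraries was described by 40077 genes in a table for each library. The submitters' processing notes name kallisto and mm10. For every gene the authors deposited estimated counts (expected counts), fractional in part and rounded here, and length-scaled TPM, used for levels between genes and as an alternative scale. Ribosomal RNA was digested according to the methods, whereas the labels name oligo(dT) capture.

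Libraries were grouped by their labels. Each tumor experiment was fitted alone, and the 8 libraries of each cell experiment together, in R 4.3.3 with edgeR 4.0.16 (filterByExpr, TMM factors, quasi-likelihood test, Benjamini-Hochberg adjustment over all genes tested, threshold 0.05). The design had assumed counts of reads. SE is the absolute log2 fold change divided by the root of F. Log2 CPM used a prior count of 2, and folds against groups at 0 a floor of 3 counts, which covers counting error only. DESeq2 1.42.0, limma 3.58.1 (limma-voom, and log2 TPM with pseudocounts of 1 and 0.1), RLE factors, no filter, at least 10 counts in every library, a replicate block, other sets of libraries in the fit and each library left out in turn were alternatives. The pipeline was tested on simulated data.

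Members and gene lists were chosen with earlier results of these data known. The members and Uba1 were named throughout. From each list of keratins, filament partners or cell markers, at most 4 genes per comparison were named, those with the largest change among genes past the threshold whose mean log2 CPM was 0 or more, and also the 5 genes most like Krt19 and Krt78 whose mean log2 CPM was 1 or more (Pearson r over 28 Myc-CaP tumors). Others are marked as named after their values were seen. Depth was 8651963 to 35693092 counts in tumors and 12860844 to 38032284 in cells. In 75 pairs of replicates the chi-square per degree of freedom was 1.81 to 91.8, and 0 pairs were duplicates.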

Additional observations from a re-analysis of the deposited data

Results flagged for a closer look

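Of 31 combinations of a member and a group of 4 to 10 libraries, 10 had a library that stood apart from the rest by Dixon's test on CPM. In each of the 10 it was the highest of its group. The combinations share tumors, so their number is not set against a chance rate. TAK-243 tumor 1 stood apart for Krt5 (16.7 CPM), Krt14 (33.03 CPM) and Krt23 (0.482 CPM), the tumor in which all 13 skin keratinocyte markers reached 10 counts. For Krt13, OE tumor 1 (32.3 CPM) and vehicle tumor 5 (32.1 CPM) were the highest of their groups. Krt19 was high in sgUba1 Myc-CaP tumor 2 (55.5 CPM) and, at a very low level, in sgUba1 B16-BL6 tumor 3 (0.875 CPM). Krt18 was high, also at low levels, in OE tumor 3 (0.978 CPM), vehicle tumor 2 (1.10 CPM) and TAK-243 tumor 5 (0.654 CPM).

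In 4 cases an effect differed between settings by an edgeR test of the difference itself, each with a limit. The log2 effect of TAK-243 in cells was lower with IFN-γ than without it for Krt19 (−0.34) and Krt4 (−0.28), and both calls were lost on the TPM scale. The sgUba1 effect on Krt18 was lower in Myc-CaP tumors than in culture (−6.15, a size that depends on how counts near 0 are modelled), and the TAK-243 effect on Krt78 was higher in tumors than in culture (3.65). Krt18 entered its fit through the groups where it was high. The Krt78 difference came from a fit in which 29.1% of all genes passed by edgeR, and 0 of the members passed by limma-voom. It is a description of experiments that also differed in dose, route and time.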

How the results depend on the processing

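Of the fold changes of members under the alternatives other than leaving out a library, 509 kept their direction and side of the threshold, 9 lost and 6 gained a call, 3 moved and 13 reversed. With a library left out the numbers were 316, 14, 5, 2 and 14. The cause of these changes was not tested. Reversed were small values of Krt7 and Krt8. In sgUba1 tumors Krt7 (0.10) became −0.18 with the replicate block and −0.053 and −0.054 on the TPM scales (pseudocount 1, then 0.1). In TAK-243 tumors Krt8 (−0.01) became 0.20 with the block and 0.068 and 0.069 on the TPM scales. In cells Krt7 became −0.0145 and −0.0147 on the TPM scales for TAK-243 (0.03), 0.0887 and 0.0896 on the TPM scales and 0.17 against the unstimulated control for TAK-243 with IFN-γ (−0.14), and −0.0261 and −0.0265 on the TPM scales for IFN-γ alone (0.31).

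The replicate numbers did not pair the tumors or cultures, since not every pair of same-numbered libraries had an r above 0.1 (−0.05 to −0.03 in sgUba1 and −0.02 to 0.09 in OE Myc-CaP tumors, −0.05 to 0.16 in B16-BL6 tumors, −0.18 to 0.31 in TAK-243 tumors and −0.02 to 0.06 in cells). With the block, genes called fell from 492 to 2 in sgUba1 tumors, from 4 to 0 in OE tumors and from 25 to 8 in TAK-243 tumors, members called fell from 3 to 1 in sgUba1 tumors, with Krt4 at an adjusted p of 0.153 and Krt13 at 0.265, and rose from 0 to 1 for IFN-γ in control sgRNA cells.

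With DESeq2, genes called were 532 in B16-BL6 tumors (127 by edgeR), 1862 in sgUba1 tumors, 723 in OE tumors with 1 member, 558 in TAK-243 tumors, 395 for IFN-γ in control sgRNA cells (603) with 1 member, 2651 for IFN-γ in untreated cells (4216) and 219 for the TAK-243 by IFN-γ test (347). With limma-voom they were 300 in sgUba1 and 2 in OE tumors, with 1 member for IFN-γ in control cells, 3 for the sgUba1 effect in tumors against culture (5) and 0 members for that of TAK-243. Without a filter they were 204 in B16-BL6, 33 in OE (1 member) and 45 in TAK-243 tumors, 1460 for IFN-γ in control cells (3 members) and 1487 for sgUba1 by IFN-γ (720). With at least 10 counts in every library they were 0 in TAK-243 tumors, 180 for IFN-γ in control cells and 365 for sgUba1 by IFN-γ, and with RLE factors 292 and 414 in the latter cases. On log2(TPM + 1) and log2(TPM + 0.1) they were 254 and 303 in sgUba1 tumors, 1 and 1 in OE tumors, 18 and 30 for IFN-γ in control cells, 12 and 4 for sgUba1 by IFN-γ, 2618 and 2627 in sgUba1 cells (4618), and 1 and 1 with 0 members for TAK-243 by IFN-γ, and on the former 4037 in sgUba1 cells with IFN-γ (6119). In a single fit of all 17 tumors they were 1406 for sgUba1 and 0 for OE, and with only the groups compared 30 for IFN-γ in control cells.

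With each library left out, genes called ran from 10 (without sgNC tumor 2) to 692 in sgUba1 tumors, 0 to 386 in OE, 1 to 299 in TAK-243 and 43 to 320 in B16-BL6 tumors, 2932 to 5641 in sgUba1 cells, 35 to 2721 for IFN-γ in control cells, 14 to 2622 for sgUba1 by IFN-γ and 85 to 329 for TAK-243 by IFN-γ. Members called ran from 1 to 3 in sgUba1 tumors, 0 to 1 in OE tumors, 0 to 2 for IFN-γ in control cells, 0 to 1 for sgUba1 by IFN-γ and 0 to 2 for TAK-243 by IFN-γ. In sgUba1 Myc-CaP tumors Krt78 passed in 10 of 10 such fits (−5.54 to −3.87), Krt4 in 7 (−4.32 to −2.59) and Krt13 in 4 (−7.70 to −3.93). Ranges that crossed 0 were those of Krt8 in sgUba1 tumors (−1.20 to 0.88), of Krt13 (−1.23 to 0.040), Krt7 (−0.037 to 0.25) and Krt8 (−0.25 to 0.22) in TAK-243 tumors, of Krt7 in TAK-243 cells (−0.051 to 0.052), and of Krt78 (−0.054 to 0.017) and Krt8 (−0.27 to 0.089) for IFN-γ in untreated cells. Depth limits Krt5, Krt14, Krt18 and Krt23, which had few counts in most tumors.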
